A study of Saccharomyces cerevisiae with 10 samples.

Results

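The transcriptome of wild-type baker's yeast, Saccharomyces cerevisiae, growing in rich medium was described from 5 microarrays. They are the wild-type members of a series of 10 arrays. The other 5 carried RNA of a strain without EDC3, a gene for an mRNA decapping activator, and were not used. The members are the arrays whose titles contain WT, and none of them was left out. Each held total RNA of strain HFY114, which was grown at 30 °C in YEPD, a complex medium of yeast extract, peptone and glucose, and received no treatment. Hot phenol served to extract the RNA, of which 6 µg went into each preparation of biotinylated cRNA. The genotype behind the strain name, the mating type and the cell density at harvest are not given in the sources used here. The labels number the arrays as biological replicates 1 to 5 and letter them A, B, C, E and G. Nothing in the labels says whether separate cultures stand behind them, so each SD given here measures the spread between these arrays, which may be technical in part. With 1 strain under 1 condition there was no comparison to test. No p-value is therefore given, and every value is a description of these arrays.

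The Affymetrix Yeast Genome S98 array carries probe sets, sets of short oligonucleotides that report on the same transcript, and a gene can have several. Of 9335 probe sets, 60 were controls, and 6504 of the others were annotated to exactly 1 gene. They measured 5656 genes. A gene with several is represented by the brightest. The values are MAS5 signals, the authors' intensities on a linear scale in arbitrary units. Where 5 values follow a gene or a gene list, they are the signals on arrays A, B, C, E and G, in that order, and each ± is an SD over these arrays (n = 5).

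Yeast supplied with glucose ferments it to ethanol even in air. Glucose represses the genes for respiration, for gluconeogenesis and for the use of other sugars, and rapid growth requires ribosomes, so messengers of ribosomal proteins and glycolytic enzymes are known as abundant in such cells. Yeast also keeps many gene pairs from an ancient duplication of its genome, and the copies of a pair often differ in the condition under which they are used.

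A signal depends on the sequence of the probes as well as on the amount of RNA, and it is not expressed per length or per molecule. An order of genes is therefore an order of signals. The spread between probe sets of 1 gene was measured on genes with several. This spread can also hold the place of the probes along the transcript, which was not told apart from their sequence. Among the 147 genes with 2 single-gene probe sets, the brighter had a median of 3.18 times the signal of the dimmer, with quartiles of 1.57-fold and 8.36-fold. In the 51 of them whose dimmer probe set was above 100, the median was 2.1-fold. FAS2, for the alpha subunit of fatty acid synthase, was the clearest case. Its 8 probe sets had geometric mean signals from 1.26 to 2296. Among the 7 that carry consecutive design numbers, the signal was 10.7 for the first and 2296 for the last. NUM1, SEC16, POL2 and YHB1, which like FAS2 were chosen after their values were seen, also ranged from dim to bright probe sets, and in each of them the brightest probe set carried the highest number. A difference of a few fold between 2 genes is thus within what probe sets of a single gene showed. Differences between the arrays for 1 gene compare the same probes, but the arrays also deviated with signal and with the position of the probe set in the design.

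Over the 5656 genes the median of the geometric mean signals was 124. The 10th percentile was 15.7, the 90th percentile 954 and the 99th percentile 4578. Protein-coding genes numbered 5486 and had a median signal of 130.0. The 91 tRNA genes had a median of 32.9 and the 57 small nucleolar RNA genes one of 22.4. The 522 genes known only by a systematic name had a median of 45.3, against 135.0 for the 5134 genes with a standard name.

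The arrays had nearly the same mean signal after the authors' scaling, and median gene signals of 134, 129, 123, 115 and 121. Arrays E and G were closer to each other than any other pair. For genes with a mean signal above 200, their median absolute log2 difference was 0.0578, and that of the other 9 pairs lay between 0.15 and 0.257. Whether E and G hold the same RNA is not stated in the labels. Some counts are therefore also given with E and G averaged as 1 sample. They cover all genes that varied over 2-fold, the 25 brightest genes and the genes not above mouse controls. Other counts over arrays take E and G as separate arrays. Array E differed from the rest at the top of the range. For the 71 genes above 4000, its median deviation from the mean of the 5 arrays was 0.33 on the log2 scale, where A and B were at -0.19 and -0.16. Controls at both ends of a transcript gave 3′ over 5′ ratios for ACT1 of 1.63, 1.61, 1.89, 1.99 and 1.79, and for SRB4 of 6.01, 6.36, 11.35, 21.2 and 10.8, highest on E for both. For SPT15 they were 5.29, 4.32, 5.30, 5.89 and 5.96, highest on G. Arrays A and B were read in 2 scans at 3 µm pixels and E in 1 scan at 2.5 µm, per the deposited instrument records. The part of these differences in the results below was not tested.

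**Figure D1:**
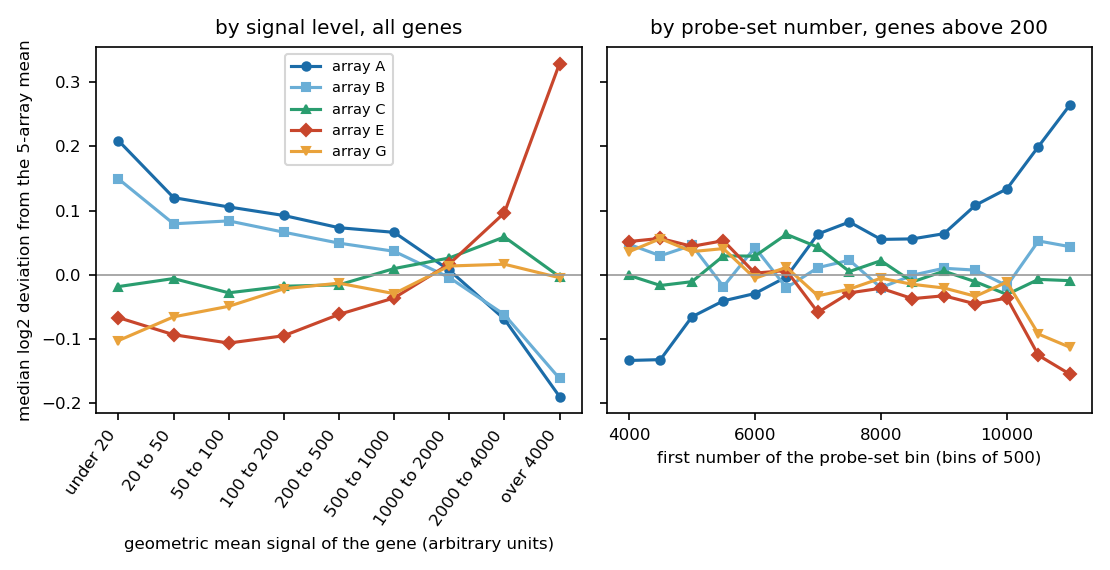
Median log2 deviation of each array from the mean of the 5 wild-type arrays, for genes grouped by geometric mean signal (left, all genes) and by the design number of the probe set in steps of 500 (right, genes with a mean signal above 200). Each line is 1 array. Array E reaches 0.33 for genes above 4000, and array A runs from -0.13 at the lowest numbers to 0.26 at the highest.

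Among genes with a single-gene probe set, most of the highest signals belonged to genes of the ribosome and of glycolysis. Probe sets with several genes or none were not ranked. Over all probe sets but the controls, the highest signals on A, B, C and G were 9765, 8185, 10120 and 9939. They lay above each of the ranked genes on these arrays. Of the 25 genes with the highest mean log2 signal, 7 encode proteins of the small and 4 of the large ribosomal subunit, 6 encode enzymes of glycolysis or alcohol fermentation, and 2 each belong to the elongation factors and the chaperones. RPS22A, for a protein of the small subunit, came first with signals of 9185, 7575, 8801, 12149.5 and 8871 (mean 9316 ± 1699). YDR524C-B, a small open reading frame without a standard name, followed with 6822, 5911, 8218, 14857 and 8308. CCW12, which encodes an abundant mannoprotein of the cell wall, had 7138, 5953, 7762, 15333 and 7853. In each of these genes array E was the highest array and B the lowest, and A, C and G lay between them.

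RPS21A and RPS21B, a pair of genes for one small-subunit protein, had 6572, 7037, 8033, 12008 and 7711 and 6972, 7181, 7989, 12044 and 7824. SSA1, a cytosolic Hsp70 chaperone, had 7129.7, 6463, 7589.8, 12841 and 7779.6, and its partner SSA2 had 5642, 4712, 6184, 7065 and 5443. ADH1, the main alcohol dehydrogenase of fermentation, had 6449, 6554, 7472, 9903 and 7520.3. All 4 of the signals of ADH1 outside array E lay between 6449 and 7520. The other fermentation and glycolysis genes among the 25 were CDC19 (pyruvate kinase, 6094 ± 874), TDH3 (glyceraldehyde-3-phosphate dehydrogenase, 6259.9 ± 2027), TPI1 (triosephosphate isomerase, 6085 ± 1112), PGK1 (phosphoglycerate kinase, 5914 ± 893) and ENO1 (enolase, 5808 ± 1003).

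Translation supplied most of the remaining names. RPL21B, RPL22A, RPL24B and RPP1B encode large-subunit proteins, with means of 7224, 6526, 6179 and 6201. RPS0B, RPS3, RPS26A and ASC1, the last for a scaffold protein of the small subunit, had means of 6604, 6311, 6462 and 5720.3. HYP2, the gene for elongation factor eIF5A, had 5492, 5963, 6445, 9344 and 6452. YEF3, for the fungal elongation factor eEF3, had 5146, 5464, 5637, 6884 and 5833 and with an SD of 0.16 on the log2 scale it varied least of the 25. HOR7, a small gene induced by osmotic stress, and ARF1, for a GTPase of vesicle budding, completed the list with 6166 ± 1124 and 5876 ± 1372.

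All 25 genes were highest on array E. The lowest array was A for 11 of them and B for 14. The excess on E was unequal. It was large in RPS26A, at 4478, 4164, 5393, 12690.0 and 5585, and in RPP1B, at 3856, 4648, 5958, 10798 and 5746, and smaller in CDC19, at 5651, 5450.0, 5735, 7613 and 6021. The 25th gene, ASC1, and the 26th, GAS1, had geometric mean signals of 5683 and 5585, a difference well inside the spread of either. Without array E, 23 of the 25 genes were the same, and with E and G averaged also 23. For 7 of the 25 the probe set carries a letter that marks probes shared with similar sequences or chosen under relaxed rules, and RPS21A, RPS21B, SSA1, TDH3, RPS26A and ENO1 are among them. With such probe sets left out, 19 of the 25 genes stayed in the list.

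**Figure D2:**
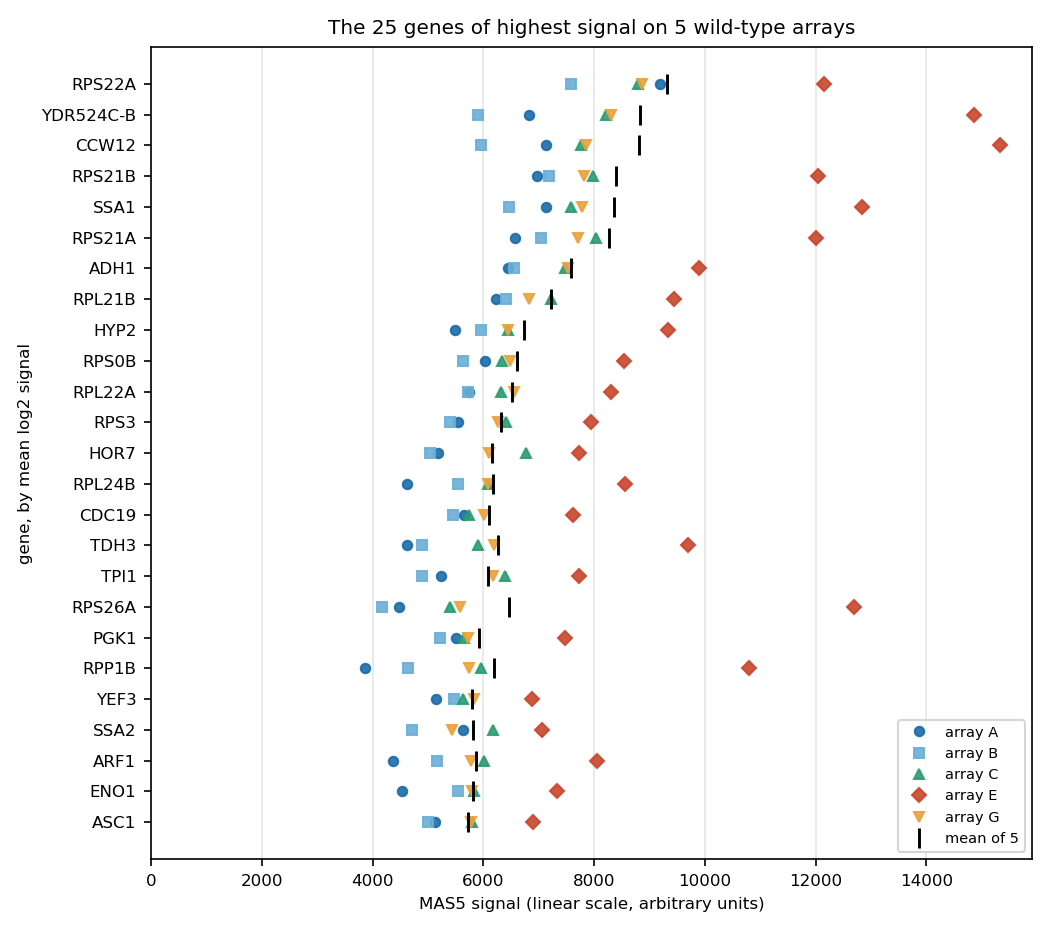
MAS5 signals of the 25 genes of highest mean log2 signal, among genes with a single-gene probe set, on the 5 wild-type arrays (linear scale, arbitrary units). Each symbol is 1 array and the black bar is the mean of 5. The diamond of array E is the rightmost symbol in all 25 rows, reaching 15333 for CCW12.

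Gene groups were described by 47 lists, and each list by the percentile of its median member among all 5656 genes. By definition the median gene stands at 50 and 566 genes lie in the top 10% and 1696 in the bottom 30%.

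Cytoplasmic ribosomal proteins were among the brightest lists. Of the 81 listed genes for large-subunit ribosomal proteins, 47 were measured by a probe set with 1 gene, and 45 of them were in the top 10%. Their median signal was 3423, the 98.2 percentile. All 34 measured small-subunit genes, of 57 listed, were in the top 10%, with a median of 3811. Over the arrays the medians of the large-subunit genes were 3235, 3174, 3480.4, 3723 and 3279.6, and those of the small-subunit genes were 3499, 3470.3, 3821, 4299 and 3949.8. The 47 large-subunit genes made up 7.84 ± 0.762% of the summed signal of all measured genes and the 34 small-subunit genes 6.35 ± 0.63%. Listed genes without a probe set of their own are in neither the shares nor the sum. The values are therefore not shares of the whole class. Ribosomal genes were not uniform. RPL9A had the lowest signals, at 541, 729, 821, 729.5 and 805, and RPL7A lay at the median of the large subunit with 2883, 3609, 3773, 3723 and 3214. RPS26B was the lowest of the small subunit, at 1236, 1609, 1511, 1616 and 1523, and RPS25B and RPS7A, nearest the median, had 3714 ± 252 and 3940.4 ± 478.

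Factors that serve the ribosome followed at lower signals. The 6 measured elongation factors had a median of 2652, with EFB1, the exchange factor for eEF1A, at 4310.5, 4929.9, 4415, 4029.8 and 3896 and TEF4, a subunit of the same complex, at 2014, 1308, 1803, 1548 and 1588. The 19 cytoplasmic aminoacyl-tRNA synthetases had a median of 1290.1 and 13 members in the top 10%. FRS1, for a subunit of phenylalanyl-tRNA synthetase, was the brightest with 4002 ± 319, SES1, for seryl-tRNA synthetase, lay at the median with 1313, 1242, 1271, 1348 and 1279.8, and GLN4, for glutaminyl-tRNA synthetase, was the dimmest with 264 ± 25.4. The 24 initiation factors had a median of 697. Among them GCD11, the gamma subunit of eIF2, had 1477, 2029, 1956, 1956 and 1902, GCD1, a subunit of eIF2B, had 682 ± 47.5, and TIF4632, one of the genes for the scaffold eIF4G, had only 41.7 ± 4.23.

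The 74 ribosome biogenesis factors, which process ribosomal RNA and assemble subunits, were far below the proteins they assemble. Their median was 359, the 75.7 percentile, and 9 were in the top 10%. NOP58, a core protein of the box C/D particles, reached 3242, 3749, 4046, 5275 and 4508, NOP16 was close to the median at 342, 405, 272, 397 and 384, and NOP7 was the lowest at 47.1, 57.5, 42.9, 82.5 and 58.1. The 69 genes for proteins of the mitochondrial ribosome had a median of 236, and 1 of them, MRPL39 at 971 ± 154, was in the top 10%. RSM23, at 42.1, 35.2, 35.6, 31.8 and 32.4, was the dimmest, and MRPL6, at 184, 312, 272, 228 and 207, lay at the median.

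**Figure D3:**
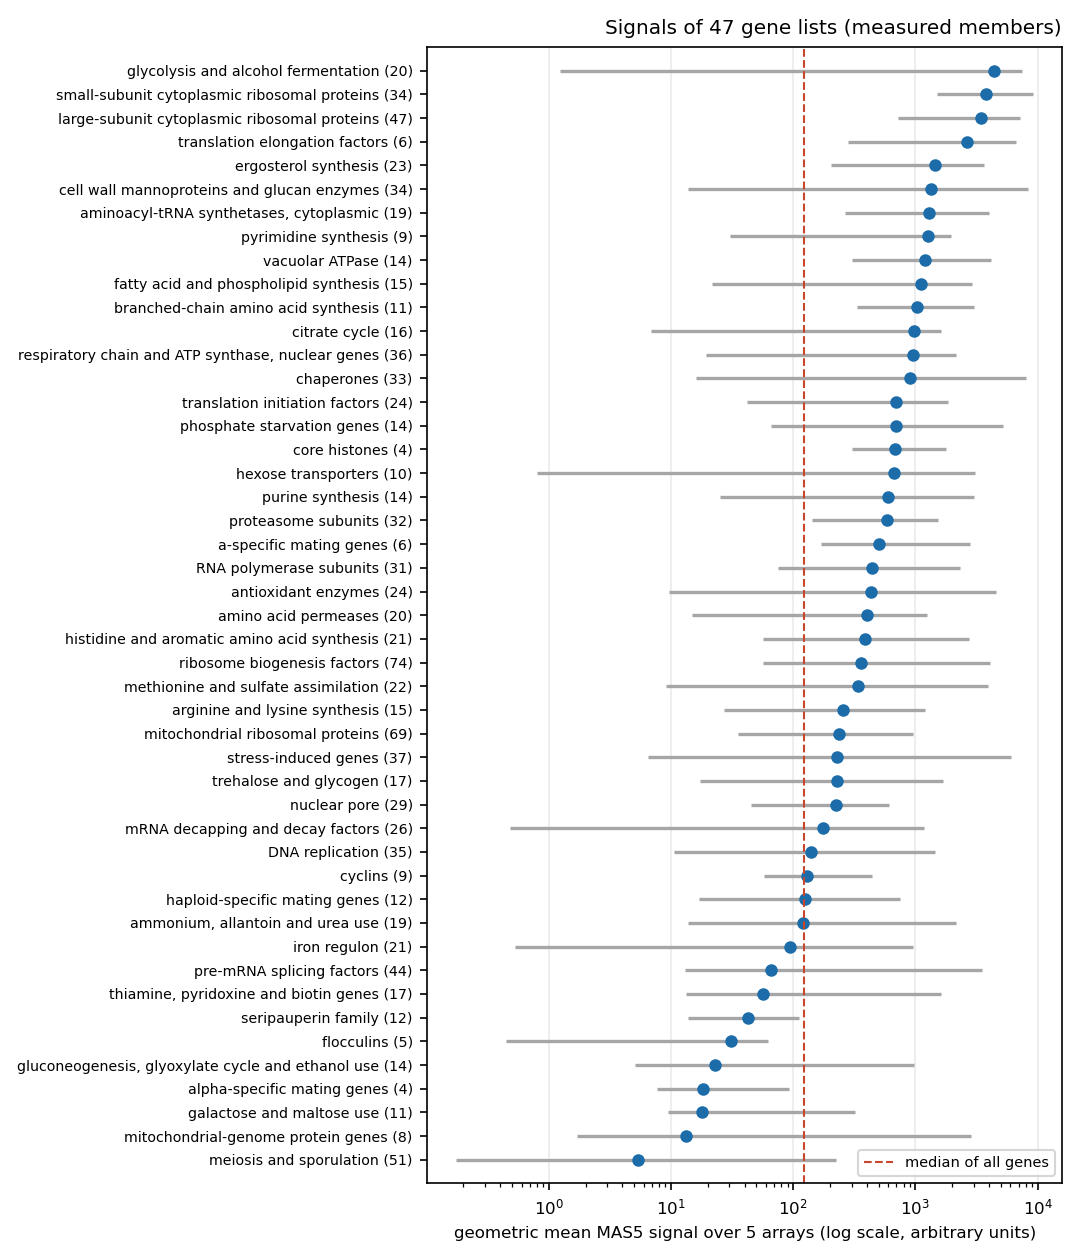
Signals of 47 gene lists (log scale). Each dot is the median and each grey line the range, from the lowest to the highest member, of the geometric mean signals over 5 wild-type arrays, the number of measured genes is in brackets and the dashed line is the median of all genes, 124. Glycolysis has the highest median, 4409, and meiosis and sporulation the lowest, 5.40.

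Carbon metabolism was split between very bright and very dim groups. The 20 genes of glycolysis and alcohol fermentation had the highest median of all lists, 4409, and 17 of them were in the top 10%. Their array medians were 4128, 4017, 4571, 5019 and 4520.1. PGI1, phosphoglucose isomerase, had 4078, 4264, 4799.7, 5191 and 4621, and PDC1, the main pyruvate decarboxylase, had 4486, 3298, 4372, 4853 and 4421. PDC6, a minor pyruvate decarboxylase gene, had 1.6, 2, 1.9, 0.4 and 1.2, signals not above those of mouse control probe sets, for which yeast has no target. The opposite pathway, with gluconeogenesis, the glyoxylate cycle and the use of ethanol, had a median of 22.9, and 9 of its 14 genes were in the bottom 30%. CAT2 and IDP2, for carnitine acetyltransferase and a cytosolic isocitrate dehydrogenase, lay at its median with 21.5 ± 4.53 and 25.6 ± 6.52. SFC1, a mitochondrial succinate-fumarate carrier, was the lowest with 5.6, 5.8, 4.4, 9.5 and 2.4. The exceptions were ALD4, mitochondrial aldehyde dehydrogenase, at 1088, 948, 1317, 766 and 811, and MDH2, cytosolic malate dehydrogenase, at 346, 258, 279, 159.8 and 155. Both were lower on E and G than on any of A, B and C.

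Genes for other sugars were equally low. Of 11 measured genes of galactose and maltose use, 10 were in the bottom 30%. GAL7, of the galactose pathway, had 13, 11.2, 5.3, 8.5 and 11.7, and MAL31, a maltose permease gene, had 28.6, 25.6, 27.4, 7.5 and 12. GAL80, the repressor of the pathway, was the one gene of this list above 200, at 374, 295, 316, 303 and 327. The 10 hexose transporters ranged over the whole scale. HXT6, a high-affinity transporter, had 3536, 3275, 3859.8, 2593 and 2456, and HXT1, the low-affinity transporter used at high glucose, had 725, 681, 759, 1227 and 1198. The directions across arrays were opposite, with HXT6 lower and HXT1 higher on E and G than on each of the other arrays. HXT4 was highest on B, at 413, 756, 587, 418 and 407, and HXT14 was at background, at 0.4, 1.4, 1, 2 and 0.3.

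Reserve carbohydrate genes, which make and break trehalose and glycogen, had a median of 227 at the 65.8 percentile. UGP1, which supplies UDP-glucose to both pathways, had 1939, 1766, 1865, 1459 and 1446. TSL1, a subunit of the trehalose synthase complex, had 289, 297, 269.6, 156 and 165, and GLG1, a glycogenin that primes glycogen, had 22.4, 21, 15.8, 13 and 16.1. UGP1 and TSL1 were lower on E and G than on A, B and C, with no overlap, and GLG1 was lowest on E.

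Respiratory genes were also in the upper part of the range. The 16 genes of the citrate cycle had a median of 968 and the 36 nuclear genes of the respiratory chain and ATP synthase one of 948, at the 90.2 and 89.9 percentiles. Their array medians were 1104, 1162, 1149.5, 813 and 777 and 1014, 1037, 1051, 800.2 and 833, lowest on E and G in both. LPD1, the lipoamide dehydrogenase of several complexes, had 1599, 1719, 1860.0, 1434 and 1460.3, and SDH2 and SDH4, subunits of succinate dehydrogenase, had 1093, 1124, 1005, 638 and 646 and 1115, 1199.8, 1319.9, 905 and 889.8. CIT3, a minor citrate synthase, was the lowest of its list at 12.7, 5.7, 9.9, 6.2 and 3.4. COX12, a subunit of cytochrome oxidase, had 2417, 2190.1, 2463, 1888 and 1901, ATP2, the beta subunit of ATP synthase, had 1298, 946, 1032, 781 and 843, and NDE2, a minor external NADH dehydrogenase, had 27.1, 20.6, 23.5, 9.3 and 21.1.

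The 8 measured protein genes of the mitochondrial genome fell into a bright and a dim group. The split is one of signals, and whether it follows the amounts of RNA was not tested. OLI1, subunit c of ATP synthase, had 2491, 3195, 3141, 2812 and 2764, COX1, subunit 1 of cytochrome oxidase, had 1505, 1214, 1335, 1097 and 1141, and ATP6, another ATP synthase subunit, had 349.7, 479, 446, 401 and 427. The other 5 were below the 30th percentile, among them COB, cytochrome b, at 9.3, 33.6, 10.9, 8.5 and 9.7, COX3 at 8, 47.1, 11.9, 12.1 and 11, and ATP8 at 1.8, 2.7, 2.9, 5.2 and 0.2. COB and COX3 were each highest on array B. ATP6 was named after its values were seen.

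Protein folding and turnover held a broad middle to upper position. The 33 chaperone genes had a median of 903, from SSA1 down to HSP30, a membrane heat shock protein, at 21.9, 17.9, 19.1, 12.6 and 11.3. HSP12, a small stress protein that binds membranes, lay at their median with 1698, 1104, 1455, 509 and 431, and its signals on E and G were below all the others. The 32 proteasome genes spanned a narrower range, with a median of 584 and signals from RPN12 at 143 ± 10.7 to PUP3 at 1539.7 ± 86.1. RPN2 and RPN7, subunits of the regulatory particle next to the median, had 579.5, 596, 616, 493 and 532 and 580.3, 697, 602, 563 and 599.8. The 24 antioxidant genes had a median of 430.3. TSA1, the main cytosolic peroxiredoxin, had 4033, 4232, 4675, 5560.2 and 4561, AHP1, another peroxiredoxin, had 3464, 2526, 3478, 3783 and 3394, and CTA1, the peroxisomal catalase, had 8.7, 10.8, 9.5, 9.6 and 9.7.

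Genes of the cell surface and of membrane lipids were bright. The 34 cell wall genes, for mannoproteins and glucan enzymes, had a median of 1334 and 21 members in the top 10%. SCW10 and EXG1, both for glucanases of the wall, had 1279 ± 132 and 1399 ± 81.1, and DAN1, a mannoprotein of anaerobic cells, had 18.5, 9.7, 11.4, 13.7 and 17.7. All 23 ergosterol genes were above 200, with a median of 1437. ERG2, for sterol isomerase, had 3824, 3465, 3762, 3747 and 3458, ERG4, for the last step of the pathway, had 1252, 1483, 1326, 1586 and 1567, and ERG12, for mevalonate kinase, had 225, 201, 189, 206 and 197. In fatty acid and phospholipid synthesis the median was 1118. ACC1, acetyl-CoA carboxylase, had 2922 ± 234, and INO1, the inositol synthase that inositol in the medium represses, had 34.7, 21.6, 27.8, 14 and 15.6. OPI3, a phospholipid methyltransferase at the list median, was highest on A and lowest on B, at 1733, 862, 1253, 982 and 951. The 14 genes of the vacuolar ATPase, a proton pump, had a median of 1188, with VMA3 at 4175 ± 564 and VMA8 at 307 ± 34.3.

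Amino acid synthesis differed between pathways. The 11 branched-chain genes had a median of 1023, with ILV5 at 2769.9, 2674, 2698, 3627 and 3487 and LEU9 at 322, 325, 354, 339 and 336, the brightest and the dimmest. The 21 histidine and aromatic genes had a median of 386, with ARO2, chorismate synthase, at 2753 ± 278 and TRP1 at 51.6, 74.2, 73.6, 45.4 and 43.3. The 22 genes of methionine synthesis and sulfate assimilation had a median of 339.9 and ran from MET17, homocysteine synthase, at 3879, 3671, 4317, 4007 and 3696, to SUL1, a sulfate permease, at 11.6, 11.6, 7.6, 10.1 and 6.3. The 15 arginine and lysine genes had a median of 257. LYS20, homocitrate synthase, had 1104, 961, 1050.0, 1565 and 1450.3, ARG8, an arginine enzyme of the mitochondrion, had 32.3, 20.8, 15.7, 35.7 and 37.8, and CPA1, a subunit of carbamoyl phosphate synthetase, had 563, 397, 480.4, 873 and 933. LYS20, CPA1 and ARG8 were each higher on E and G than on the other 3 arrays.

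Uptake of nitrogen showed a wide range. Of 20 amino acid permeases, GAP1, the general permease that good nitrogen sources repress, had the highest signals, at 1373, 999, 1259, 1313 and 1288. HIP1, a histidine permease, had 344, 342, 372, 427 and 499, and ALP1 was the lowest at 16.4, 14.1, 14.7, 16.7 and 13.1. In the list for ammonium, allantoin and urea, GDH1, the main glutamate dehydrogenase, had 2019.7, 2096, 2492, 2064 and 2018, MEP1, an ammonium permease, had 107, 145, 114, 116 and 121 and DUR3, a urea permease, had 14.2, 14.5, 15.4, 12.2 and 12.6. For nucleotides, the 9 pyrimidine genes had a median of 1279 and the 14 purine genes one of 594. URA2, the first enzyme of the pyrimidine pathway, had 2404, 1806, 1897, 1912 and 1889, and URA7, CTP synthase, had 1092, 1031, 1083, 1696 and 1655, higher on E and G than elsewhere. IMD4, an IMP dehydrogenase, had 3005 ± 312, and ADE4, the first enzyme of purine synthesis, had 27.1, 18.4, 29.9, 18.8 and 35.3.

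Nutrient regulons took different positions. The 14 genes that phosphate starvation induces had a median of 694, the 86.5 percentile. PHO84, the high-affinity phosphate transporter, had 4453, 4780.1, 5166, 6491 and 5482, PHO81, an inhibitor of the Pho80-Pho85 kinase, had 599, 557, 585, 639 and 657, and VTC3, of the polyphosphate polymerase, had 829, 819.6, 815, 730.3 and 787. GIT1, a glycerophosphoinositol transporter, was the dimmest at 93.7, 85, 96.7, 38.2 and 41.4. The 21 genes of the iron regulon had a median of 94.9, with FET3, the ferroxidase of iron uptake, at 1512, 937, 1401, 622 and 643, and FRE5 at background. In the thiamine, pyridoxine and biotin list the median was 56.3. PHO3, a thiamine-repressible acid phosphatase, had 1713, 1033, 1464, 2043 and 2093, and THI2, an activator of thiamine genes, had 15.4, 14.3, 14.8, 9.9 and 13.

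Nuclear functions mostly lay near the middle. The 31 RNA polymerase genes had a median of 445, with RPO21, the largest subunit of polymerase II, at 2307, 1543, 2214, 3066 and 2787, RPA12 at 452 ± 83.4 and RPC25 at 76.2 ± 14.2. The 35 DNA replication genes had a median of 139.7. RNR4, a subunit of ribonucleotide reductase, had 1209, 1490.5, 1461, 1529 and 1513, CDC45, a factor of the replication fork, had 159.5, 133, 132, 141 and 135 and ORC6, of the origin recognition complex, had 15.4, 12, 5.6, 12.5 and 10.6. The 4 histone genes with a probe set of their own, of 10 listed, ran from HHO1, linker histone, at 394, 220.5, 356, 288 and 281 to HTB1, for histone H2B, at 1584, 1846, 1944, 1848 and 1742. The 9 cyclins had a median of 129. CLN3, of early G1, had 493, 264, 396, 558 and 574 and CLB6, of S phase, had 57.3, 65.5, 53.9, 60.4 and 53.3. CLB3, a mitotic cyclin at the list median, had 247, 242, 239, 48.9 and 51. Arrays A, B and C gave nearly one value and E and G another, with no overlap.

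The 44 splicing factors were low, with a median of 65.3 at the 33.3 percentile. SNU13, which also belongs to nucleolar particles, stood alone at 2864, 3273, 3629, 4006 and 3779, PRP4 and PRP16 lay at the median with 59.7, 73.5, 69.7, 63 and 53.9 and 81.5, 71.8, 60, 56.2 and 69.1, and PRP18 was at 13.8, 14.4, 11.1, 13.7 and 12.9. The 26 decapping and decay factors had a median of 175. PBP1, a poly(A)-binding-protein partner, had 1237, 966, 1174, 1298 and 1259.8, LSM1 and LSM4, of the ring that binds decaying mRNA, had 217, 189.9, 175, 133 and 149 and 175, 206, 175, 171 and 172, and EDC1 was at background with 0.7, 0.4, 0.3, 1 and 0.3. EDC3, the gene deleted in the other strain of the series, had 474, 480.5, 467, 465 and 457 (mean 469 ± 8.93). The 29 nuclear pore genes had a median of 222, between NUP42 at 45.8 ± 8.21 and NDC1 at 605 ± 23.5.

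The mating genes separated by type. The 6 genes specific to MATa cells ran from AGA2, an adhesin subunit, at 168, 152, 166, 178 and 186, to MFA2, a gene for a-factor, at 2449, 2409.8, 2844, 3554 and 2970.5. STE2, the receptor for alpha-factor, had 342, 475, 403, 434 and 461, and BAR1, the protease that degrades alpha-factor, had 490.4, 670.4, 564, 685 and 681. Of the 4 measured genes specific to MATalpha cells, 3 were in the bottom 30%. MF(ALPHA)1 and MF(ALPHA)2, for alpha-factor, had 23.9, 15.5, 15.2, 26.9 and 23.6 and 17, 18.3, 14.3, 15.1 and 15.9, STE3, the a-factor receptor, had 17.5, 11.6, 7.3, 7.2 and 2.5, and SAG1, an agglutinin at the 42.5 percentile, had 109, 67.7, 89.5, 95.6 and 102. Genes used in haploids of either type had a median of 124, with STE4, the beta subunit of the pheromone G protein, at 675, 814, 689, 786 and 768, GPA1, its alpha subunit, at 104, 106, 121, 138 and 132, and FUS1, which pheromone induces, at 18.9, 11.9, 16.5, 18.7 and 19.8. The labels name no mating type.

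The genes with least signal were those of meiosis and spore formation. Of 51 measured genes, 50 were in the bottom 30%, and their median was 5.40. SPS18, a sporulation gene at the median, had 5.9, 5.2, 5.9, 4.1 and 6.2. SPR6 was the exception, at 199.5, 158, 237, 266 and 286. The 5 flocculins, adhesins of the cell surface, had a median of 30.7, with FLO11 at 68.2, 57, 56.1, 60.4 and 70.5 and FLO1 at 0.6, 0.3, 0.4, 0.5 and 0.5. In the seripauperin family, whose members share much of their sequence, 12 of 26 had a probe set of their own, with a median of 42.7 and a highest member, PAU4, at 159, 105, 114, 90.4 and 102.

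The value table holds no detection calls, so the bottom of the range was set against the 4 mouse control probe sets. The highest of these had signals of 3.3, 3.4, 4.5, 4.5 and 3.2. In 61 genes, 1.08% of all, the signal was at or below that level on 5 of 5 arrays. This does not tell a low amount of RNA from none. Nor need it mean little RNA, since RDN18-1, a gene for ribosomal RNA, is among the 61. With E and G averaged, the count was 76, since 4 values must then pass. Of the 61, 6 are in the meiosis list, namely CDA1, DIT2, MEI5, MND1, REC114 and SPS2, and 5 belong to other lists, namely PDC6, HXT14, EDC1, FLO1 and FRE5. Of the protein-coding genes with a standard name, MND1, ECM12, BI3, CDA1 and CSM4 had the lowest signals. All were at 1 or less on every array, and values this low have no order. Genes near chromosome ends were low as a group. The 201 measured genes among the 10 outermost protein-coding genes of each end had a median of 51.9, and 3.98% of them were not above the controls. The other 5455 genes had a median of 127, and 0.972% of them were not above the controls.

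Among 137 gene pairs listed as paralogs, both copies had a single-gene probe set in 97. The brighter copy was the same on all 5 arrays in 82 of them, the ratio of the brighter to the dimmer signal was under 2 in 46, and it was 4 or more in 34. Ratios of this size occur between probe sets of a single gene, as given above, so the ratio itself mixes the probes with the RNA. Its spread over arrays also holds the array deviations with signal and with probe set number shown in the plot of median deviations. The copies of ribosomal protein genes had a median ratio of 1.74 in 31 measured pairs, and 24 of them were under 2. In 17 of these 31 pairs, against 2 of the 12 glycolysis pairs, a probe set carries a letter that marks shared or relaxed probes, so it may bind both copies. In the 12 measured glycolysis pairs the median ratio was 9.37, and in the 13 pairs of membrane and respiratory proteins it was 10.4. Pairs of the nucleus, cell cycle and signalling had a median of 1.65 and those of metabolism one of 2.58.

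The glycolysis pairs ranged from nearly equal copies to a bright and a dim one. ENO1 and ENO2, the enolases, had geometric means of 5739.6 and 4962, and PFK1 and PFK2, the subunits of phosphofructokinase, 2666 and 3082. Both sets of copies kept a steady ratio, with an SD of 0.064 and 0.084 on the log2 scale. The probe sets of ENO1 and ENO2 both carry a letter that marks shared or relaxed probes, so each may bind both copies. CDC19 and PYK2, the pyruvate kinases, had 6049 and 84.1, PDC1 and PDC5 had 4251 and 181, and GPM1 and GPM2, phosphoglycerate mutase and its minor relative, had 5551 and 13.2. ADH1 was set beside ADH2, the glucose-repressed alcohol dehydrogenase, at 134, 53, 59.4, 57.6 and 49.1, and beside ADH5, at 146, 142, 138, 94.7 and 119. The log2 ratio of ADH1 to ADH2 was 5.59, 6.95, 6.97, 7.43 and 7.26, lowest on array A. No ratio is given for PDC6, which was at background.

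Some ratios differed between arrays. PGM1 and PGM2, the phosphoglucomutases, had a log2 ratio of 1.07, 1.00, 0.70, 3.40 and 3.35, the largest spread of any pair with both means above 200 (SD 1.35). HXK1 and HXK2, the hexokinases, had -1.13, -1.29, -1.32, -2.36 and -2.28, TDH1 and TDH3 had -0.97, -1.37, -1.38, -2.19 and -1.56, and ALD4 and ALD5, mitochondrial aldehyde dehydrogenases, had 1.46, 1.38, 1.61, 0.36 and 0.42. In the PGM, HXK and ALD pairs E and G lay apart from A, B and C. GPD1 and GPD2, glycerol-3-phosphate dehydrogenases, had 0.53, 0.72, 0.69, 0.05 and -0.07, so that which copy was brighter differed on G. ARO3 and ARO4, isozymes that open the aromatic pathway, had -1.21, 0.17, 0.44, 0.35 and 0.40, where array A alone was apart. RPS26A and RPS26B had 1.86, 1.37, 1.84, 2.97 and 1.87, where E was apart. PGM2 passed the cut of 200 with an arithmetic mean of 202, and had 54.3 and 54.9 on E and G. The cyclin genes CLB3 and CLB4, a pair that the cut left out, had a ratio with an SD of 1.26.

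Other pairs held one ratio on all arrays. The SD was 0.036 for RPS21A and RPS21B, 0.068 for RPS28A and RPS28B, both for ribosomal proteins, 0.075 for TEF4 and CAM1, the genes for elongation factor eEF1B gamma, and 0.081 for HXT6 and HXT7, the high-affinity glucose transporters. The copies of RPS21 and of HXT6 and HXT7 are near-identical in sequence, so their probe sets can bind the same RNA and their values are uncertain as measures of 1 copy. Both probe sets of RPS28A and RPS28B also carry a letter that marks shared or relaxed probes, so the same doubt applies to them.

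Several further pairs, chosen after their values were seen, had the same brighter copy on every array. YEF3 and HEF3, for elongation factor eEF3, had geometric means of 5764 and 27.0. NDE1 and NDE2, the external NADH dehydrogenases, had 1836 and 19.1, and PMA1 and PMA2, plasma membrane proton pumps, had 3075 and 57.9. HYP2 and ANB1, aerobic and hypoxic genes of eIF5A, had 6621 and 279. CYC1 and CYC7, for cytochrome c, had 2082 and 86.7, and COX5A and COX5B, aerobic and hypoxic subunits of cytochrome oxidase, had 1117 and 207. In the chaperones, HSC82 and HSP82, the constitutive and the inducible Hsp90, had 3403 and 1264, both bright, a ratio within what probe sets of a single gene showed.

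**Figure D4:**
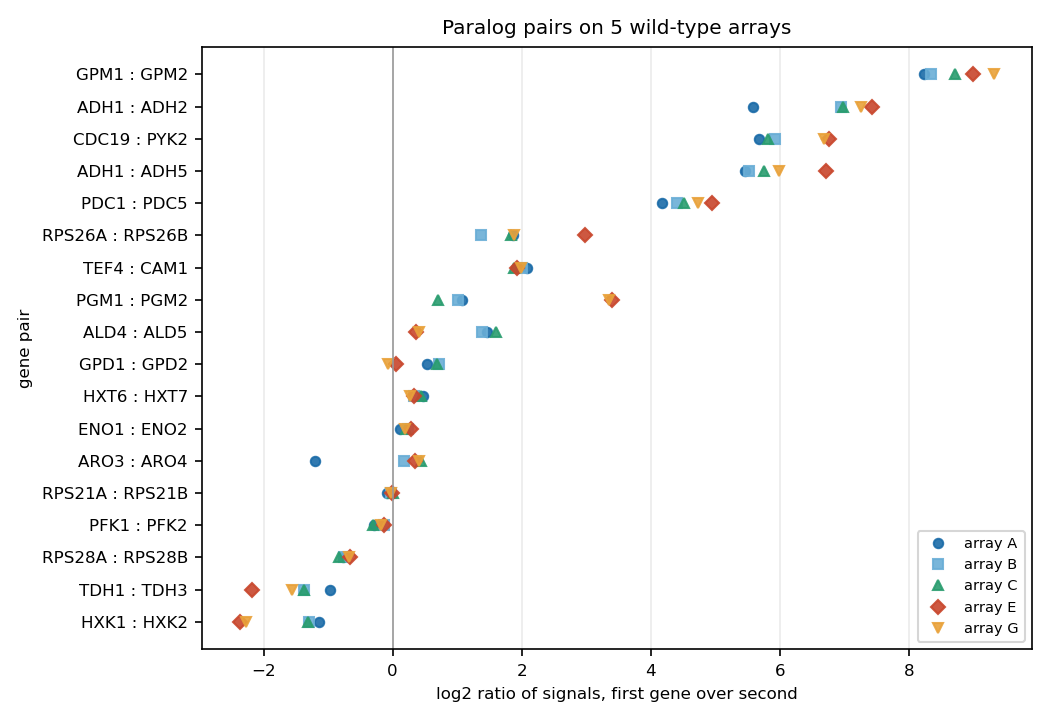
Log2 ratio of the signals of paralog pairs, the first gene over the second, on the 5 wild-type arrays. Each symbol is 1 array. PGM1 to PGM2 runs from 0.70 on array C to 3.40 on array E, and ARO3 to ARO4 is at -1.21 on array A alone, while RPS21A to RPS21B stays between -0.09 and 0.01.

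The stability of each gene over the 5 arrays was measured as the SD of its log2 signal, among the 2115 genes with a mean signal above 200. Dimmer genes were left out. The median SD was 0.457 for genes under 20, 0.212 between 100 and 200, 0.189 between 200 and 500 and 0.139 between 2000 and 4000, and it was 0.22 above 4000, where array E deviated. The median SD over the 2115 genes was 0.176. RPB7, a subunit of RNA polymerase II, was the most stable, with 588, 581, 580.4, 586 and 595 and an SD of 0.014. HOM2, an enzyme shared by threonine and methionine synthesis, had 1243, 1216, 1219, 1243 and 1211, and MCK1, a protein kinase of the GSK-3 family, had 715, 716, 699.6, 707 and 694. In all 3 the highest array was at most 1.03-fold above the lowest. EDC3 was 4th, with an SD of 0.028.

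The other stable genes had varied roles and signals. NHP6A, a chromatin protein, had a mean of 769 ± 14.7, and SNT1, of a histone deacetylase complex, 379 ± 9.56. SEC13, of vesicle coats and the nuclear pore, had 1277 ± 25.6, and SHR3, a chaperone that lets amino acid permeases leave the endoplasmic reticulum, had 2012 ± 48.5. ALG8, of protein glycosylation, had 508 ± 10.5, and PMT7, a relative of protein mannosyltransferases, had 279 ± 5.81. SHP1, a partner of Cdc48, had 1056 ± 22.2, PRS1, for phosphoribosyl pyrophosphate synthetase, had 1913 ± 40.7, CPR6, a cyclophilin, had 2237 ± 50.9, HOM3, aspartate kinase, had 419 ± 9.73, and RPS9A, of the small ribosomal subunit, had 1702 ± 42.8. The 15th gene, RPS9A, had an SD of 0.037, and the 16th, SUI1, for initiation factor eIF1, also 0.037, so the line between them is arbitrary. HOM2 and HOM3 act in one pathway, on aspartate.

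At the other end, 140 of the 2115 genes, or 6.62%, had a highest signal over 2 times the lowest, and 9 genes, or 0.426%, over 4 times. PRM7, a pheromone-regulated gene, stood first with 51.8, 56.3, 73.4, 759 and 893, a 17.2-fold range. It was low on A, B and C and high on E and G. YDL124W, an aldo-keto reductase gene, had the opposite pattern, 594, 587, 669, 97.5 and 78.8. PGM2, the major phosphoglucomutase, had 306, 287, 307, 54.3 and 54.9, and GPH1, glycogen phosphorylase, had 597, 616, 628, 135 and 152. Both were low on E and G, with no overlap. DDR2, a multistress gene, had 738, 593, 666, 214 and 215, and HSP12, given above, had a 3.94-fold range in the same direction.

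MRPS9 and MRPL27, of the mitochondrial ribosome, had 273, 326, 308, 78.5 and 111 and 294, 475, 372, 130.5 and 116. LEC1 had 273, 450.3, 357, 111 and 138, ADP1, an ABC transporter gene, had 245, 301, 288, 92.1 and 114, and FMP42 had 610.2, 623, 633, 221 and 242. All 5 were lower on E and G than on each other array. SNR67, a small nucleolar RNA, had 929, 1719, 906, 431 and 409, with B highest. SRO9, an RNA-binding protein, was high on E and G, at 156, 113, 148, 409 and 417. In SYG1 and MSL5 E and G were also the highest arrays, but the largest gap set a single low array apart. SYG1, a membrane protein, was low on C, at 475, 455, 136, 707 and 675, and MSL5, the branchpoint-binding protein of splicing, was low on B, at 230.1, 77.3, 166, 299.9 and 289. The 15th gene, FMP42, and the 16th, RSA4, had SDs of 0.78 and 0.77.

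**Figure D5:**
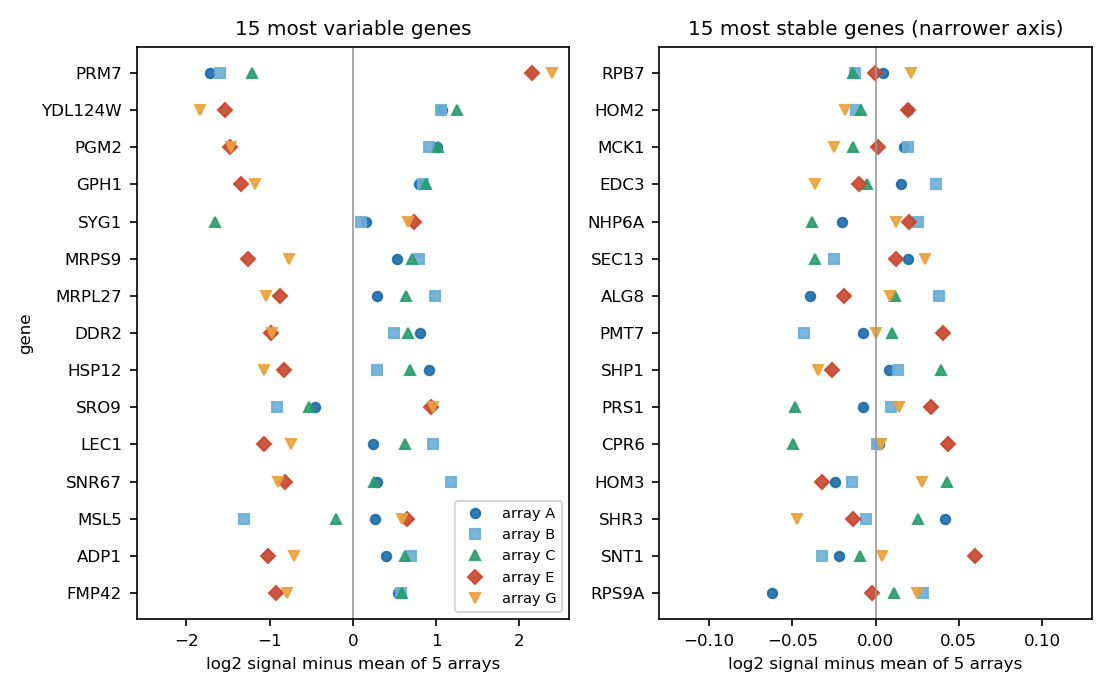
Log2 signal of each array minus the gene's mean over 5 wild-type arrays, for the 15 most variable genes (left) and the 15 most stable (right, on a much narrower axis) among 2115 genes with a mean signal above 200. Arrays E and G lie together on one side in most of the variable genes, while SYG1 is low on array C and MSL5 on array B.

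Each of the 140 variable genes was assigned to the arrays on the far side of its largest gap. In 50 of them (35.7%) E and G were low together, in 18 (12.9%) E and G were high together, and in 48 (34.3%) array B alone was low. Over all 2115 genes the same assignment gave 14.3%, 8.51% and 12.1%. With arrays A, B and C alone, a choice made after seeing the data, 41 genes (1.90%) varied over 2-fold. With E and G averaged the count was 131, and without array B it was 69.

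Genes of the stress and reserve carbohydrate lists varied over 2-fold more often than all genes did. The lists were chosen with earlier results of these data known. Of 22 stress-induced genes above 200, 7 varied over 2-fold, where 6.62% of all genes did, and in all 7 E and G were low together. They were DDR2, GPH1, HSP12, HXK1, MSC1, PGM2 and TPS2. HXK1, the hexokinase induced when glucose runs low, had 1448, 1547, 1487, 754 and 764, TPS2, trehalose phosphatase, had 449, 575, 570.5, 297 and 262, and MSC1 had 312, 297, 294, 137 and 151. In the reserve carbohydrate list, which shares GPH1, PGM2 and TPS2 with it, 5 of 11 varied over 2-fold, and the others were GDB1, glycogen debranching enzyme, at 379, 322, 427, 182 and 191, and NTH1, a trehalase, at 159, 346, 369, 324 and 302. By contrast HSP26, a small heat shock protein at the median of the list, had 222, 263, 206, 215 and 232. Among mitochondrial ribosomal proteins 8 of 41 varied over 2-fold, and in 4 of these E and G were low. MRPL33 had 598, 614, 521, 268 and 309. Of the large-subunit and small-subunit cytoplasmic ribosomal proteins 1 of 47 and 1 of 34 did, RPP1B and RPS26A, which were high on E. No gene varied over 2-fold among 23 of ergosterol synthesis, 30 of the proteasome and 14 of the vacuolar ATPase. The same held for 19 aminoacyl-tRNA synthetases, 21 initiation factors and several other lists, such as 16 antioxidant genes. Beside 6.62% of all genes, a count of 0 in lists of this size is near the common share.

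E and G were below every other array in further genes of varied roles. QCR2, a subunit of the cytochrome bc1 complex, had 1057, 1019, 1226, 562 and 562, FET3 was lower on E and G as given above, and PUT4, the proline permease, had 551, 291, 524, 191 and 209.5. SCD6, a translation repressor that binds decapping factors, had 324, 326, 309, 132 and 134. SUP35, the translation release factor eRF3, chosen after its values were seen, had 524, 519, 534, 251 and 265. In FET3 and PUT4 the largest gap lay between A and C on one side and B, E and G on the other.

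Genes low on array B alone formed the second pattern. ILV6, the regulatory subunit of acetolactate synthase, had 2264, 896, 2333, 2334 and 2258, CAR2, ornithine transaminase, had 1176, 402, 1036, 706 and 717, and RPA14, of RNA polymerase I, had 521, 278, 497, 637 and 635. TOS6, DSK2, MAE1 and LPX1, chosen after their values were seen, had 3449, 917, 3066, 2438 and 2579.5, 1534, 504, 1411, 1539 and 1473, 841, 264, 649.5, 857 and 863 and 502, 155, 413, 435 and 410.5. TOS6 is a wall protein gene, DSK2 a ubiquitin receptor and MAE1 the mitochondrial malic enzyme. In DSK2 the other 4 arrays lay between 1411 and 1539, and in ILV6 between 2258 and 2334. ARO3 and ARX1, a ribosome export factor, were instead low on array A alone, at 627, 1447, 1417, 1613 and 1576 and 179, 397, 380.4, 464 and 452.

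The variable genes were not spread evenly over the array design. Of 57 genes on chromosome III above 200, 16 (28.1%) varied over 2-fold, against 122 of 2046 (5.96%) on the other chromosomes, and on chromosome I 7 of 33 (21.2%) did. The 16 genes had no common direction, since B alone was low in 8, E and G were low in 5 and E and G were high in 3. Array A also deviated with the number of the probe set, and in this design each chromosome occupies a range of numbers. Its median deviation was -0.13 for numbers 4000 to 4499 and 0.26 for 11000 to 11499, where E and G were at -0.15 and -0.11. What sets these patterns was not tested. They bear on every gene named here as variable that lies on chromosome III, namely SRO9, ADP1, ILV6 and RSA4. They bear too on CLN3, which lies on chromosome I and also varied over 2-fold. Differences between arrays of about the size of these median deviations are touched as well.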

How the data were processed

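RNA of strain HFY114 was measured on 5 Affymetrix Yeast Genome S98 arrays. The deposited intensities are MAS5 signals, 1 per probe set and array, per the submitters' processing notes; no software version is given in the sources used here. The values show a linear scale and arrays already scaled to one mean, since their 2%-trimmed means lay between 250.2 and 250.24. This scaling was kept. Probe-level intensities were not used here, so background correction could not be varied.

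Of 9335 probe sets, 60 controls were left out, and of the other 9275, 6504 had 1 gene in the platform annotation, 328 several and 2443 none. Probe sets of the last kind are unnamed here and may still measure genes. Symbols came from RefSeq genes of assembly R64 through the gene identifier. Chromosomes were read from systematic names, and the R64 table gave the order of genes at chromosome ends. The brightest probe set stood for a gene with several. Signals were set on a log2 scale without an offset, and 11 signals of 0 were raised to 0.1. Percentiles rank the geometric mean signals. Spread was the SD of the log2 signal and the highest over the lowest array, for genes with an arithmetic mean signal above 200. No test was made. Tables were computed with Python 3.11.15, pandas 2.3.3 and numpy 2.4.6 and were tested on simulated data.

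Members and gene lists were chosen with earlier results of these data known. The genes named are the 25 of highest signal, the 15 most and 15 least variable, and EDC3. From each of the 47 lists they are up to 4 members by level and the member of largest SD. Added to these are the 5 pairs of largest and the 5 of smallest spread and all glycolysis pairs. The last are the 5 protein-coding genes of lowest signal with a standard name. Other genes were counted as members of a list or are marked as chosen after their values were known. Protein identity of the pairs and promoter motifs were planned and not analysed here. Alternatives were another scaling, quantile normalization, the mean over probe sets, E and G as 1 sample, other minimum signals, another floor and leaving out each array.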

Additional observations from a re-analysis of the deposited data

Results flagged for a closer look

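Of 323 values checked, which are the signals of the genes named, the medians of the lists and the log2 ratios of the named pairs, 34 (10.5%) had 1 array far from the other 4, with a gap to the nearest of over 0.71 of the whole range. Chance gives about 1 in 20. The array that stood apart was A in 13, B in 13, C in 3, E in 5 and G in 0 of them. A pair of arrays that stand apart together, such as E and G, cannot be found by this measure.

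Array E was far above the others for RPS21B (12045), RPS26A (12690.0), SSA1 (12841) and PGK1 (7473), and far below them for NDE2 (9.3). Array A was high for ADH2 (134) and URA2 (2404), and for ECM12, at background, with 0.3. It was low for ARO3 (627), ARX1 (179), GCD11 (1477), NTH1 (159), RNR4 (1209), RPL9A (541) and RPS26B (1236). The log2 ratios of ADH1 to ADH2 and of ARO3 to ARO4 were lowest on A, at 5.59 and -1.21, and so was the median of the hexose transporters, at 547.

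Array B was low for AHP1 (2526), DSK2 (504), GAP1 (999), ILV6 (896), LPX1 (155), MAE1 (264), PDC1 (3298), RPS25B (3270.1) and TOS6 (917). It was high for LSM4 (206), COB (33.6) and COX3 (47.1), and with the last pair for the median of the mitochondrial-genome genes, at 39.8. Array C was high for GDH1 (2492) and low for NDC1 (565) and SYG1 (135.5). Many of these were named because they vary between arrays, among them ARO3, ARX1, DSK2, ILV6, LPX1, MAE1, NTH1, RPS26A, SYG1, TOS6 and the ratio of ARO3 to ARO4. Their presence here adds nothing, and the share of 10.5% cannot be read against that of chance.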

How the results depend on the processing

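The count of genes that vary over 2-fold, 140, depended most on the minimum signal and on the arrays. It was 238 for genes above 100, 325 for the 70% of genes of highest signal and 47 for genes above 500, which are 7.57%, 8.21% and 4.55% of the genes kept. At 4-fold it was 9. Leaving out each array in turn gave 69 to 134, with 69 (3.28%) without array B, and arrays A, B and C alone, added after seeing the data, gave 41. Quantile normalization gave 135, scaling to one median 153, E and G as 1 sample 131, the mean over probe sets 137 and a floor of 1 again 140. The list of 25 genes shared 23 to 25 genes when an array was left out, 22 with the mean over probe sets and 19 with plain probe sets alone. The count of genes not above the mouse controls was 64 to 74 without 1 array, 76 with E and G as 1 sample and 61 to 67 otherwise.

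Of 517 recomputed list percentiles 500 moved by less than their spread over arrays, and the largest shift was that of the flocculins, from 18.3 to 6.72 with the mean over probe sets. Of 330 recomputed SDs 313 did so, and PRM7 moved most, from 2.08 to 0.26 in A, B and C alone. Of 190 pair ratios 188 did so, and TEF4 to CAM1 moved from 1.97 to 1.14 with the mean over probe sets. No paired analysis was possible because the strains were not compared and no test was made. The number of arrays, 5, and the closeness of E and G limit the precision of each SD, and signals near those of the mouse controls cannot be told from background.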

Other observations

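HO, the endonuclease of mating-type switching, had signals of 336, 277, 323, 319 and 289 on the wild-type arrays, and PHO5, the acid phosphatase that phosphate represses, had 1113, 876, 1025, 1039.7 and 1093. Both were chosen after their values were seen. IME2, SPO11 and NDT80, inducers and enzymes of meiosis, had means of 6.22, 1.70 and 13.2, ICL1 and FBP1, of the glyoxylate cycle and gluconeogenesis, had 72.2 and 11.6, and GAL1, galactokinase, had 11.5.

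The small nuclear RNA genes, 4 in number, had a median signal of 8.12, and the 11 pseudogenes one of 6.50. As with the other RNA classes above, the signal of small nuclear RNA is no measure of its amount beside mRNA. Among small nucleolar RNAs SNR67 was the brightest, with a geometric mean of 761. SNR4, chosen after its values were seen, had 115, 130.3, 139, 294 and 364, higher on E and G than on each other array.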
